A study of Mus musculus with 15 samples.

Results

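The Hox genes are the homeobox transcription factor genes of the 4 Hox clusters, and they were taken as every gene whose name on the array is Hox with a cluster letter from a to d and a number. This gave 39 genes on 44 probes, out of 46287 genes and unnamed probes measured. Cluster a on chromosome 6 gave 11 genes, cluster b on chromosome 11 gave 10 genes, and cluster c on chromosome 15 and cluster d on chromosome 2 gave 9 genes each. The study exposed primary mouse lung cells for 24 h to beta-aminopropionitrile (BAPN), an irreversible inhibitor of the lysyl oxidases that cross-link collagen and elastin, at 1 mM, or to vehicle (phosphate-buffered saline), and measured total RNA on 15 one-colour arrays. Alveolar type II (ATII) cells, the surfactant-making epithelial cells of the lung, had been kept at an air-liquid interface for 3 days until they formed a monolayer; 4 arrays carried BAPN-treated and 4 carried vehicle-treated ATII cells. Lung fibroblasts, starved for 24 h, came from passage 3 or later; 3 arrays carried BAPN-treated and 4 carried vehicle-treated fibroblasts. The cell types therefore also differed in culture vessel, passage and starvation, and these and the cell type cannot be told apart. The sources used here do not give the mouse strain, sex or age, nor whether replicates came from separate animals, so p-values measure only the spread between these arrays, which may be technical. One array of the BAPN-treated ATII cells is labelled as a replacement and is called replicate 5.

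Hox proteins bind DNA through a homeodomain, mostly together with cofactors of the Pbx, Meis and Pknox families, and give cells their position along the body axis. Within each cluster the genes lie in the order in which they are used from the head end to the tail end, and adult cells in culture, fibroblasts above all, keep much of the pattern of the place they came from. In the lung the known pattern lies in the anterior and central parts of clusters a and b, and Hoxa5, which acts in the mesenchyme, is required for normal airway and alveolar development in mice. The genes are described below by paralog group: 1 to 3 are called anterior, 4 to 8 central, and 9 to 13 posterior.

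All levels are log2 of the scanner's background-corrected signal minus the 75th percentile of the same array, so a level of 0 is the 75th percentile of all probes, and a level is compared only with levels of the same probe. A probe was detected on an array where the scanner software marked it as well above background. Between 65.2% and 71.2% of the spots of an array were marked so, no spot was saturated, and arrays of the same group correlated at 0.982 to 0.996 over the 24291 features detected on every array. The arrays lay on 2 slides that each held all 4 groups, and values within each slide are given below. Slide 1 held 1 BAPN-treated fibroblast array and slide 2 held 1 BAPN-treated ATII array. Values within a slide that use either of these therefore rest on 1 array on that side.

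Epithelial and mesenchymal markers were checked against the labels. All 11 epithelial markers were detected on every ATII array, and their summed level (linear scale, 75th percentile of the array set to 1) was 711 to 998 in vehicle-treated ATII cells, against 4.78 to 20.4 in vehicle-treated fibroblasts, where Cdh1 and Ocln were detected on no array. Of 12 ATII markers 10 were detected on every vehicle-treated ATII array, but Slc34a2, a phosphate transporter that defines these cells, was detected on none. In vehicle-treated fibroblasts 7 of the 12 were detected on every array, and Sftpa1, Sftpb, Sftpc, Slc34a2 and Nkx2-1 on none. Their summed level was 49.0 to 52.1 in vehicle-treated ATII cells and 32.6 to 37.0 in vehicle-treated fibroblasts, so the sums lay much closer than for the epithelial markers. Gene by gene, 8 of the 10 tested ATII markers were higher in vehicle-treated ATII cells and 0 lower, with a median log2 change of 2.05. Tested markers not detected in fibroblasts passed the filter only through the ATII cells. All 14 fibroblast markers were detected on every array of every group. Their summed level was 1179 to 1552 in vehicle-treated ATII cells and 1652 to 2189 in vehicle-treated fibroblasts. Of the 14, 7 were lower and 0 higher in vehicle-treated ATII cells, and 7 did not pass the test. Thy1 (log2 change -2.90), Tcf21 (-2.37) and Pdgfra (-1.66) were lower in the ATII cells, but Col1a1 (0.07, adjusted p = 0.802) and Col3a1 (-0.07, adjusted p = 0.902) did not pass. Mesothelial markers summed to 107.1 to 161.8 in vehicle-treated ATII cells and 0.596 to 21.7 in vehicle-treated fibroblasts, where 1 of the 5, Msln, passed as higher in the ATII cells (5.55) and 4 did not, and macrophage and leukocyte markers to 10.3 to 12.6 in vehicle-treated ATII cells and 31.8 to 59.9 in vehicle-treated fibroblasts. The part of these other cells in the Hox levels was not tested, and in RNA of whole cultures fewer cells of a type and less RNA per cell cannot be told apart.

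The measurements rest on single 60-base probes, and the first 30 bases of 3 that decide results below are shown, 5′ to 3′ as printed on the array. They are those of Hoxa4 and Hoxc4, which were higher in ATII cells in both comparisons of the cell types, and of Hoxb6, which was lower in both. Positions are on mouse build mm9: the Hoxa4 probe lies at chr6:52140287-52140346 (minus strand), the Hoxb6 probe at chr11:96162563-96162622 (plus) and the Hoxc4 probe at chr15:102867213-102867272 (plus).
Hoxa4 probe: atataatctagagacctggatcagtttctc
Hoxb6 probe: tcgagtctcatttcgtccatgtcccccgtg
Hoxc4 probe: ataaagaattttagtgttgatgtgaaatgc
The homeobox is alike between paralogs, and the 44 probes were compared with one another. Over 941 pairs of probes of different Hox genes, the longest run of identical bases was 11 of 60, with a median of 6. Probes of different genes can lie in different parts of their transcripts. The probes were not compared with the transcripts of other Hox genes, so binding to the RNA of a paralog was not tested.

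RefSeq gave promoters (250 bases before to 50 after the start, build GRCm38.p6) for 22 of the 39 genes, 24 promoters in all. The 11 genes that differed between vehicle-treated cell types, described below, included 5 with a promoter in the table, and those 5 are shown because they moved in both directions. They were searched on both strands for AGGTCA, the half-site of nuclear receptors such as the retinoic acid receptors that act on Hox clusters, and for TGATNNAT, a sequence bound by Hox proteins together with Pbx. The letters of these 2 motifs did not overlap in any promoter shown, and capitals mark AGGTCA or its reverse complement. Hoxa3 (chr6:52213018-52213317, minus strand), Hoxa5 (chr6:52204538-52204837, minus) and Hoxc4 (chr15:103034145-103034444, plus) were higher in ATII cells, and Hoxa7 (chr6:52218524-52218823, minus) and Hoxb4 (chr11:96318017-96318316, plus) were lower. The Hoxa3 start given lies between those of Hoxa6 and Hoxa7.
Hoxa3 promoter: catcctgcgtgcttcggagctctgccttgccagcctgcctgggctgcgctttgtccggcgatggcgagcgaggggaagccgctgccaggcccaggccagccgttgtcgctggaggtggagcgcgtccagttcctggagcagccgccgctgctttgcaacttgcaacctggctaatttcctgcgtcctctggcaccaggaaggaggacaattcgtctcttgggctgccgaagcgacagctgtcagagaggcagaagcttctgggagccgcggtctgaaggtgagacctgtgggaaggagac
Hoxa5 promoter: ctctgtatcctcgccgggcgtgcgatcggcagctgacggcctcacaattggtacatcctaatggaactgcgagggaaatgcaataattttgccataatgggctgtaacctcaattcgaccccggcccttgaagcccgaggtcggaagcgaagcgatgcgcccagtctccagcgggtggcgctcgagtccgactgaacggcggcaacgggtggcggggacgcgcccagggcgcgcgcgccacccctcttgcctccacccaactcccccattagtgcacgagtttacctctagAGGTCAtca
Hoxc4 promoter: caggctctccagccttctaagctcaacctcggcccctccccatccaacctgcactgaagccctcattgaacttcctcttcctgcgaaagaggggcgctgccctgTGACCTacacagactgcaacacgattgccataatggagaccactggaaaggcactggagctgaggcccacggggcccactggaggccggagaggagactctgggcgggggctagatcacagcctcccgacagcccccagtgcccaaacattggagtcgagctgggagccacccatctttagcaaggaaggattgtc
Hoxa7 promoter: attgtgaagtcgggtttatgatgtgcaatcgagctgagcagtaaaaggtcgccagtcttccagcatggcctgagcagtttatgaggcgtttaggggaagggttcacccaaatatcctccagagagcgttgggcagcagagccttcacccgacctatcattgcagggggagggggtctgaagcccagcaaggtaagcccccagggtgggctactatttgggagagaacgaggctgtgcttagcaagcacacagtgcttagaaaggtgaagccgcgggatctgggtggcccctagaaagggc
Hoxb4 promoter: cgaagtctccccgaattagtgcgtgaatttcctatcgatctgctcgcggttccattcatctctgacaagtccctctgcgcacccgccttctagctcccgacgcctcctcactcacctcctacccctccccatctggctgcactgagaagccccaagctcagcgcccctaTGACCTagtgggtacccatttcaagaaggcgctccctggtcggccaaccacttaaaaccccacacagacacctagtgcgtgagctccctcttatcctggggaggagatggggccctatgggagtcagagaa
AGGTCA stood at +42 in Hoxa5 on the plus strand, at -146 in Hoxc4 and at -81 in Hoxb4 on the minus strand, counted from the start of each gene. It was in 7 of the 24 Hox promoters (29.2%), against 16.3% of all 32851 promoters of the same length. TGATNNAT was in 4 of the 24 (16.7%), in none of the 5 shown, against 8.85% of all promoters. CpG pairs numbered 20 in the Hoxa3, 29 in the Hoxa5, 9 in the Hoxc4, 9 in the Hoxa7 and 14 in the Hoxb4 promoter. The median was 14.5 over the Hox promoters and 7 over all promoters. A match is a description of letters, and binding was not measured.

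Detection followed the clusters. The 18 genes detected on all 15 arrays included Hoxa2 to Hoxa7 and Hoxa9, Hoxb2 to Hoxb9, and Hoxc4 and Hoxc6. The share, 18 of 39, compares with 52.5% of all features detected on every array. Another 14 genes were detected on some arrays: Hoxa13, Hoxc5, Hoxc8, Hoxc9, Hoxc10, Hoxc12, Hoxc13, Hoxd1, Hoxd3, Hoxd4, Hoxd8, Hoxd10, Hoxd11 and Hoxd13. Hoxa10, Hoxa11, Hoxb1, Hoxb13, Hoxc11, Hoxd9 and Hoxd12 were detected on none, as were 17% of all features. The Hoxa11 and Hoxb1 probes were each printed at 10 spots, so their absence did not rest on a single spot. On a single array 21 to 25 Hox genes were detected.

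**Figure D1:**
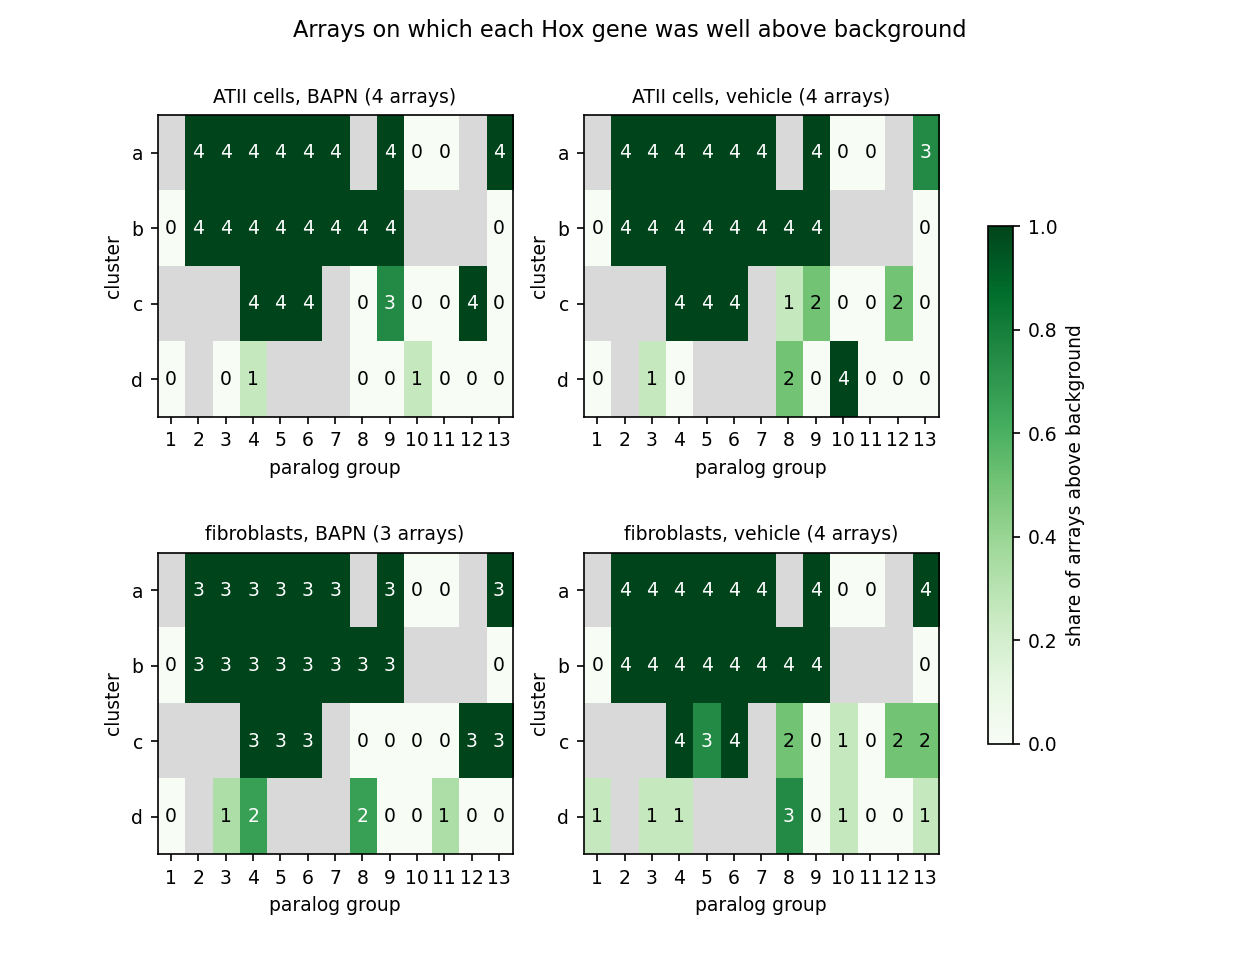
Arrays on which each Hox gene was well above background, one panel per group, with the paralog group on the x axis and the clusters a to d down the page; the number and the shade give the arrays with detection and their share, and grey marks positions not drawn. Hoxa2 to Hoxa7 and Hoxb2 to Hoxb8 were detected on every array, and most genes of cluster d on few.

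Hoxc5, a central gene, was detected on every array but 1, in vehicle-treated fibroblasts. Hoxa9 and Hoxb9 apart, posterior members were detected on fewer arrays, and 3 of them differed in where they were seen. Hoxc9 was detected on 3 of 4 BAPN-treated and 2 of 4 vehicle-treated ATII arrays, against 0 of 3 BAPN-treated and 0 of 4 vehicle-treated fibroblast arrays. Hoxd10, a gene of the hindlimb and the lower spinal cord, was detected on 4 of 4 vehicle-treated ATII arrays and 1 of 4 vehicle-treated fibroblast arrays, but on 1 of 4 BAPN-treated ATII arrays and 0 of 3 BAPN-treated fibroblast arrays. Hoxc13, known for its part in hair and nail growth, was detected on no ATII array, against 3 of 3 BAPN-treated and 2 of 4 vehicle-treated fibroblast arrays. Hoxd10 was the only cluster d gene detected on every array of any group. In full groups, 21 genes were detected on every BAPN-treated ATII array and 20 on every vehicle-treated ATII array, against 22 on every BAPN-treated and 19 on every vehicle-treated fibroblast array.

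**Figure D2:**
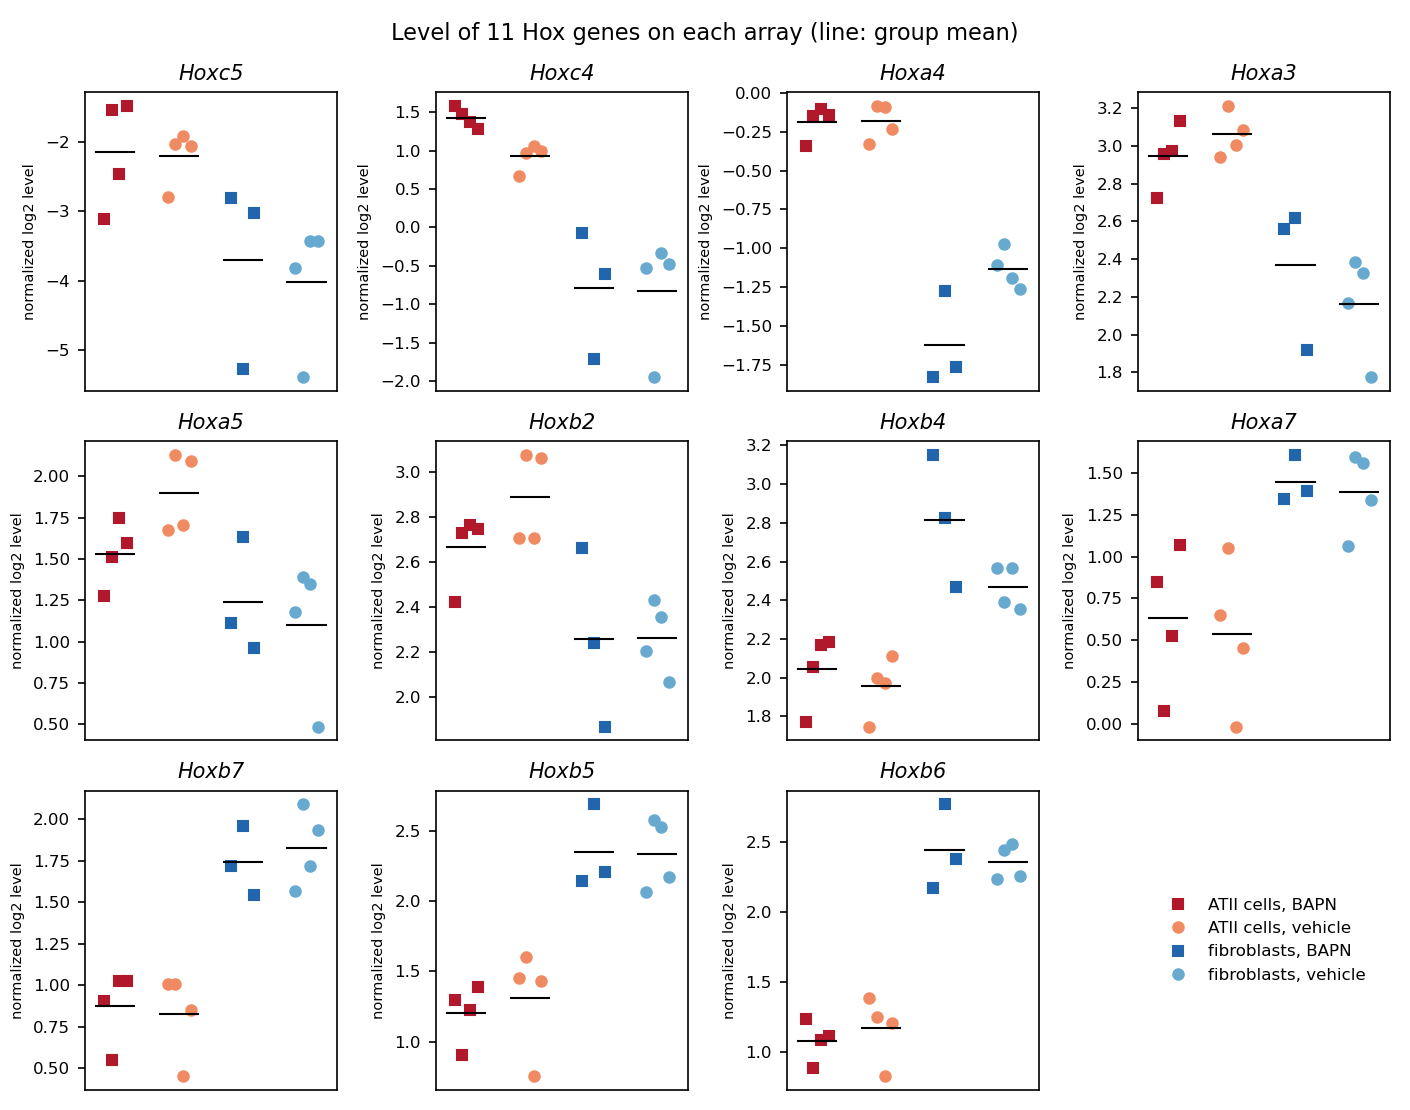
Normalized log2 level (0 is the 75th percentile of the array) of the 11 Hox genes that differed between vehicle-treated cell types, with 1 point per array and a line at each group's mean, in the order ATII BAPN, ATII vehicle, fibroblast BAPN, fibroblast vehicle; each panel has its own scale. Hoxb4, Hoxb5, Hoxb6 and Hoxb7 sit lower, and Hoxa3, Hoxa4 and Hoxc4 higher, on every ATII array than on every fibroblast array.

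Vehicle-treated ATII cells and fibroblasts differed in 11 Hox genes. Hoxa3 to Hoxa5, Hoxb2 and the first genes of cluster c were higher in ATII cells. A run of neighbours in the middle of cluster b, Hoxb4 to Hoxb7, and Hoxa7, the paralog of Hoxb7, were lower. The test was limma's moderated test on all 15 arrays with Benjamini-Hochberg adjustment over every feature tested, two-sided at an adjusted p of 0.05. Of 24 Hox genes that could be tested, 6 were higher and 5 lower in ATII cells, against 14.5% higher and 16.8% lower among 32467 features, 31.3% in all. In those same 11 the groups did not overlap, as was so upward for 15.5% and downward for 19.1% of features. The size of the Hox differences, a median of 0.71 on the log2 scale regardless of sign, stood beside 0.33 for all features. The signed median was -0.19 for the Hox genes and -0.13 for all features. Quantile scaling moved the median of all features by 0.11, under which all 11 kept their direction.

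Anterior genes came first in the direction of ATII cells. Hoxa3, which acts in the pharyngeal arches and the thymus, had levels of 2.94, 3.21, 3.01 and 3.09 in vehicle-treated ATII cells (replicates 1 to 4) and 2.17, 2.38, 2.33 and 1.77 in vehicle-treated fibroblasts (replicates 1 to 4). Every ATII array was above every fibroblast array, and fibroblast replicate 4 was the lowest. The log2 change was 0.90 ± 0.17 (SE, adjusted p = 0.00121, n = 4 each), with 0.73 on slide 1 and 1.07 on slide 2. Hoxb2, which patterns the hindbrain, had 2.71, 3.07, 2.71 and 3.06 in ATII cells and 2.20, 2.43, 2.35 and 2.07 in fibroblasts. The groups did not overlap, and the change was 0.62 ± 0.17 (SE, adjusted p = 0.0111), with 0.43 on slide 1 and 0.82 on slide 2. Hoxa2, which patterns the second pharyngeal arch, averaged -0.78 ± 0.27 in ATII cells and -1.34 ± 0.22 in fibroblasts (SD, n = 4 each), and its change of 0.56 did not pass (adjusted p = 0.0916).

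Among the central genes, the paralogs of group 4 went different ways. Hoxa4 had -0.33, -0.08, -0.09 and -0.23 in vehicle-treated ATII cells, against -1.11, -0.97, -1.19 and -1.26 in vehicle-treated fibroblasts. The 2 sets of arrays were tight and far apart, with a change of 0.95 ± 0.13 (SE, adjusted p = 7.36e-05) and 0.94 on slide 1 and 0.96 on slide 2. Hoxc4 had 0.67, 0.97, 1.07 and 0.99 in ATII cells and -0.52, -1.95, -0.34 and -0.48 in fibroblasts. All ATII arrays were higher, and fibroblast replicate 2 lay far below the other fibroblast arrays. The change was 1.75 ± 0.36 (SE, adjusted p = 0.00196), with 1.30 on slide 1 and 2.20 on slide 2. Hoxb4, best known for its role in blood stem cells, had 1.75, 2.00, 1.97 and 2.11 in ATII cells and 2.57, 2.39, 2.57 and 2.35 in fibroblasts, a change in the opposite direction with no overlap. It was -0.51 ± 0.15 (SE, adjusted p = 0.0175), with -0.71 on slide 1 and -0.32 on slide 2, and the adjusted p was 0.0529 with the replicate number as a block and 0.0560 without ATII replicate 1. Hoxd4, detected on 1 of 4 fibroblast and no ATII arrays with vehicle, could not be tested.

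Group 5 split by cluster in the same way. Hoxa5, the lung regulator named above, had 1.68, 2.13, 1.71 and 2.10 in vehicle-treated ATII cells and 1.18, 1.39, 1.35 and 0.48 in vehicle-treated fibroblasts. ATII cells were higher on every array, by 0.80 ± 0.21 (SE, adjusted p = 0.0109), with 0.43 on slide 1 and 1.17 on slide 2, and fibroblast replicate 4 was lowest. Hoxc5 had -2.80, -2.02, -1.90 and -2.06 in ATII cells and -3.81, -5.40, -3.43 and -3.42 in fibroblasts, of which replicate 2 was the array without detection. The change was 1.82 ± 0.58 (SE, adjusted p = 0.0277), with 1.27 on slide 1 and 2.37 on slide 2; it no longer passed without fibroblast replicate 2 (1.36, adjusted p = 0.0867) or without ATII replicate 2, 3 or 4 (adjusted p = 0.0609 to 0.0640). Hoxb5, a mesenchymal gene of the branching lung, had 1.45, 1.60, 0.76 and 1.43 in ATII cells and 2.07, 2.57, 2.52 and 2.17 in fibroblasts. It was lower on every ATII array, lowest in replicate 3, with a change of -1.02 ± 0.20 (SE, adjusted p = 0.00141), -1.19 on slide 1 and -0.86 on slide 2.

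Groups 6 and 7 were lower in ATII cells in cluster b and, for group 7, in cluster a. Hoxb6 had 1.39, 1.26, 0.83 and 1.21 in vehicle-treated ATII cells and 2.24, 2.45, 2.48 and 2.26 in vehicle-treated fibroblasts. This was the largest fall among the Hox genes that passed, -1.18 ± 0.15 (SE, adjusted p = 4.2e-05), and it was -1.25 on slide 1 and -1.12 on slide 2. Hoxb7 had 1.01, 1.01, 0.45 and 0.85 in ATII cells and 1.57, 2.09, 1.72 and 1.93 in fibroblasts. No arrays overlapped, and the change was -0.999 ± 0.167 (SE, adjusted p = 0.000418), with -0.91 on slide 1 and -1.08 on slide 2. Hoxa7 had 0.65, 1.05, -0.02 and 0.45 in ATII cells and 1.06, 1.59, 1.56 and 1.33 in fibroblasts. The highest ATII array lay just below the lowest fibroblast array, and the change was -0.85 ± 0.24 (SE, adjusted p = 0.0144), with -0.99 on slide 1 and -0.71 on slide 2. Hoxa6, at -0.59 (adjusted p = 0.133), and Hoxc6, at 0.52 (adjusted p = 0.43), did not pass.

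Hoxb8, the next gene of cluster b, had the widest spread of the 18 genes detected everywhere. Its levels were 1.62, 1.56, -0.77 and -0.27 in vehicle-treated ATII cells and 2.00, 0.16, 2.32 and 2.61 in vehicle-treated fibroblasts. The groups overlapped, and the change of -1.24 had a 95% interval from -2.59 to 0.11 (adjusted p = 0.163). Its standard deviation within groups, 0.963, was above that of 99.5% of the features detected on every array. Of the 5 posterior genes tested (Hoxa9, Hoxa13, Hoxb9, Hoxc12 and Hoxd10), 0 passed with the adjusted p of limma, and 1, Hoxd10, had an unadjusted p under 0.05. Hoxd10 stood at -4.68, -4.95, -4.19 and -4.73 in ATII cells and -6.52, -5.56, -5.95 and -4.51 in fibroblasts, which overlapped through fibroblast replicate 4. By class, 2 of 5 anterior genes were higher and 0 lower, and 4 of 14 central genes were higher and 5 lower. By cluster, 3 of 9 genes were higher and 1 lower in a, 1 of 8 higher and 4 lower in b, 2 of 5 higher and 0 lower in c, and 0 of 2 passed in d.

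**Figure D3:**
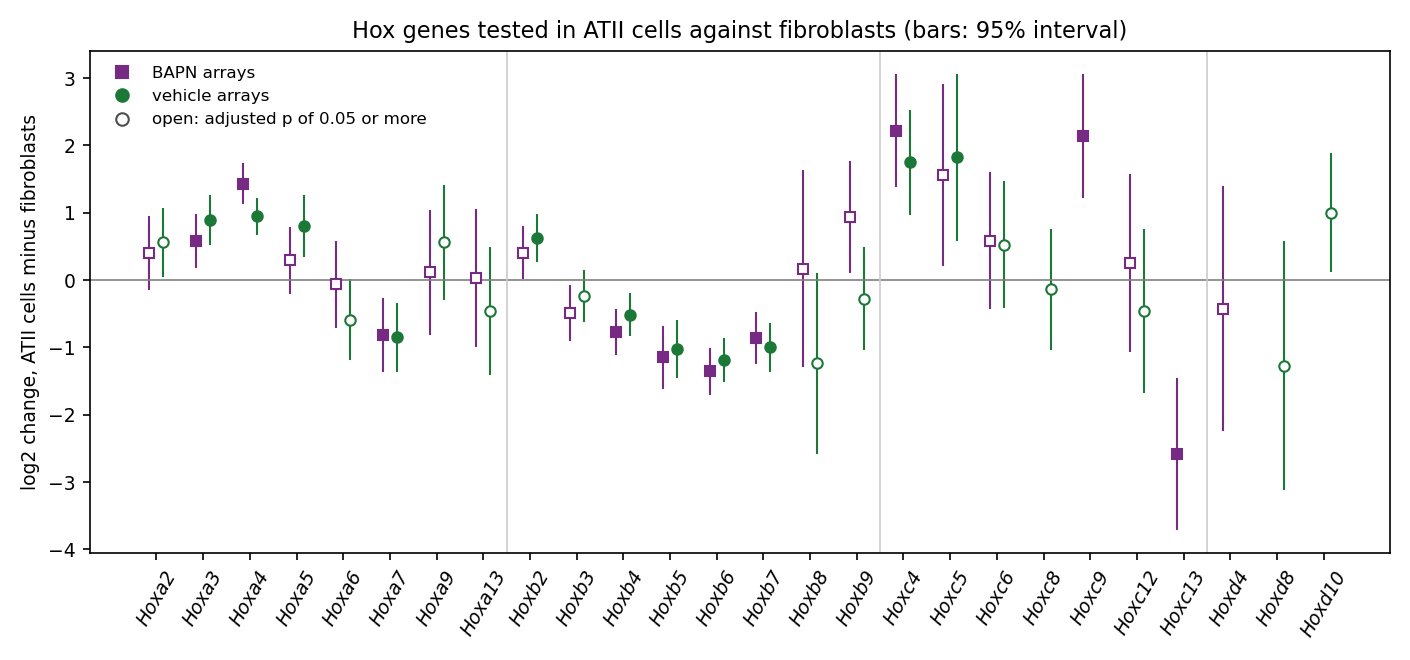
Log2 change, ATII cells minus fibroblasts, of tested Hox genes with the 95% confidence interval, for BAPN-treated (squares) and vehicle-treated (circles) cells, with genes in cluster order; filled symbols passed the test. Symbols filled in both lie below 0 at Hoxb4 to Hoxb7 and Hoxa7 and above 0 at Hoxa3, Hoxa4 and Hoxc4; Hoxc9 and Hoxc13 are drawn at their measured difference, with fibroblasts (Hoxc9) or ATII cells (Hoxc13) not well above background.

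The 2 genes with a second probe that was bright enough gave a limit on these calls. The dimmer Hoxb3 probe fell by 0.83 in vehicle-treated ATII cells (adjusted p = 0.00236 with every probe tested on its own) while the brighter one had a change of -0.24 that did not pass, so Hoxb3, a neighbour of Hoxb4, is uncertain. The Hoxa9 probes had changes of 0.56 and -0.03, neither of which passed.

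The same comparison in BAPN-treated cells, on other arrays, gave 10 of 24 Hox genes, 4 higher and 6 lower, against 13.4% higher and 15.9% lower among 32267 features. The groups of those 10 did not overlap. Upward and downward, 15.4% and 18.6% of features had groups that did not overlap. Of the 11 genes from vehicle-treated cells, 8 passed in the same direction: Hoxa3, Hoxa4, Hoxc4, Hoxb4, Hoxb5, Hoxb6, Hoxb7 and Hoxa7. Hoxc5 (1.56, adjusted p = 0.0796), Hoxa5 (0.30, adjusted p = 0.386) and Hoxb2 (0.41, adjusted p = 0.112) did not pass, although without fibroblast replicate 1 Hoxc5 (adjusted p = 0.0447) and Hoxb2 (adjusted p = 0.0180) did. No gene passed in opposite directions.

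Hoxa4 had -0.34, -0.15, -0.11 and -0.15 in BAPN-treated ATII cells (replicates 1, 3, 4 and 5) and -1.83, -1.27 and -1.76 in BAPN-treated fibroblasts (replicates 1, 2 and 4). The gap was wide on every array, with a log2 change of 1.43 ± 0.14 (SE, adjusted p = 4.28e-06, n = 4 and 3), 1.61 on slide 1 and 1.41 on slide 2. Hoxc4 had 1.59, 1.48, 1.37 and 1.28 in ATII cells and -0.07, -1.71 and -0.60 in fibroblasts, a change of 2.22 ± 0.39 (SE, adjusted p = 0.000695), 1.51 on slide 1 and 2.53 on slide 2. Hoxa3 had 2.72, 2.95, 2.97 and 3.13 in ATII cells and 2.56, 2.62 and 1.92 in fibroblasts, with 0.58 ± 0.19 (SE, adjusted p = 0.0318), 0.38 on slide 1 and 0.70 on slide 2. No arrays of Hoxa3 overlapped, but it did not pass without fibroblast replicate 4 (0.36, adjusted p = 0.167) or without ATII replicate 3 or 5 (adjusted p = 0.0600 and 0.0842).

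Cluster b repeated its run of falls. Hoxb6 had 1.24, 0.89, 1.09 and 1.12 in BAPN-treated ATII cells and 2.17, 2.77 and 2.38 in BAPN-treated fibroblasts, a change of -1.36 ± 0.16 (SE, adjusted p = 2.93e-05), -1.09 on slide 1 and -1.48 on slide 2. Hoxb5 had 1.29, 0.91, 1.22 and 1.39 in ATII cells and 2.14, 2.69 and 2.21 in fibroblasts, a change of -1.14 ± 0.22 (SE, adjusted p = 0.00127), -0.95 on slide 1 and -1.22 on slide 2. Neither gene had an ATII array near the fibroblast arrays. Hoxb7 had 0.91, 0.55, 1.03 and 1.03 in ATII cells and 1.72, 1.96 and 1.54 in fibroblasts, a change of -0.86 ± 0.18 (SE, adjusted p = 0.00255), -0.89 on slide 1 and -0.73 on slide 2. Hoxb4 had 1.77, 2.05, 2.17 and 2.18 in ATII cells and 3.15, 2.83 and 2.47 in fibroblasts, a change of -0.77 ± 0.16 (SE, adjusted p = 0.00254), -1.15 on slide 1 and -0.48 on slide 2. In cluster a, Hoxa7 had 0.85, 0.08, 0.53 and 1.07 in ATII cells, all below the 1.34, 1.61 and 1.39 in fibroblasts, with -0.81 ± 0.26 (SE, adjusted p = 0.0289), -0.68 on slide 1 and -0.97 on slide 2. With the replicate number as a block the adjusted p was 0.0552 for Hoxa7 and 0.0664 for Hoxa3. Hoxa7 also did not pass without ATII replicate 3 or without fibroblast replicate 2 or 4 (adjusted p = 0.0624 to 0.0974).

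A pair of posterior genes joined in BAPN-treated cells, and both passed the filter on dim probes only through the group in which they were high, so that they had to differ and support nothing. Without them 8 of 22 genes passed, 3 higher and 5 lower. Hoxc9 had -4.21, -4.42, -4.50 and -4.91 in ATII cells, while fibroblasts were not well above background on any array, so that its level was higher in ATII cells by at least 2.01-fold (adjusted p = 0.00178, given as a description). Hoxc13 was the reverse, not well above background in any ATII array and at -4.40, -4.40 and -4.36 in fibroblasts, so that its level was lower in ATII cells by at least 1.91-fold (adjusted p = 0.00206, likewise a description). With normexp background correction neither passed (Hoxc9 0.48, adjusted p = 0.0590; Hoxc13 -0.32, adjusted p = 0.241), and with the stricter filter Hoxc9 was not tested. The bounds set the bright group's mean against, on each dim array, the lower end of the signals well above background or the probe's own signal, whichever was higher. The dimmer Hoxb3 probe again fell, by 0.98 (adjusted p = 0.00138), and the brighter one did not pass (-0.49, adjusted p = 0.0677).

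Under BAPN 1 Hox gene passed the test, in fibroblasts. There 1 of 24 tested genes passed, Hoxa4, which was lower, against 2.45% higher and 10.9% lower among 32251 features. Hoxa4 was also the only tested Hox gene with an unadjusted p under 0.05, which 27.1% of features had, and the only one whose groups did not overlap, as was so upward for 7.51% and downward for 16.5% of features. The 3 BAPN arrays stood at -1.83, -1.27 and -1.76, below the -1.11, -0.97, -1.19 and -1.26 of the 4 vehicle arrays, though BAPN replicate 2 lay close to vehicle replicate 4. The fall was -0.49 ± 0.14 (SE, adjusted p = 0.0348). It was -0.68 on slide 1, which held 1 BAPN-treated fibroblast array, and -0.40 on slide 2. It no longer passed under 14 of 19 alternatives, which include leaving out any array but BAPN replicate 2 (changes of -0.53 to -0.39). The Hoxa4 spot lay in column 127 of the array, and 4068 of the 4308 features that passed lay right of its middle, column 82, where 50.2% of the tested features lay. After correction of each array for the trend over spot columns the Hoxa4 change was -0.32 (adjusted p = 0.201).

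The other 23 genes of the fibroblast comparison did not pass, with changes from -0.72 (Hoxd8) to 0.61 (Hoxa9). The median over the 24 was 0.05, against 0.03 for all features, and the 95% interval lay within a 2-fold change in either direction for 14 of the 18 genes detected everywhere. Hoxb5, for example, had 0.01 with an interval from -0.45 to 0.48. Hoxb4 came nearest to passing in the upward direction, at 0.35 (adjusted p = 0.186). Intervals were wide for Hoxb8 (-2.12 to 0.80), Hoxa9 (-0.31 to 1.54), Hoxb9 (-1.25 to 0.41) and Hoxc6 (-1.11 to 0.93), and for the genes not detected everywhere, as for Hoxd8 (-2.71 to 1.28).

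In ATII cells 0 of 23 tested Hox genes passed with limma, and 0% of 32043 features passed. At an unadjusted p under 0.05 there were 2 Hox genes, against 10.4% of features. Hoxa6, a central gene that helps pattern the vertebrae, had -2.84, -2.59, -2.42 and -2.83 with BAPN and -2.83, -3.50, -3.10 and -3.94 with vehicle, a change of 0.67 ± 0.28 (SE, adjusted p = 0.464). Hoxb9, which with its paralogs shapes the rib cage, had -0.23, -1.49, -0.61 and -0.31 with BAPN and -0.93, -1.58, -1.81 and -1.47 with vehicle, a change of 0.79 ± 0.35 (SE, adjusted p = 0.464). Both genes had overlapping groups. Hoxa13, a gene of the digits and the genital tract, had -3.72, -3.999, -3.20 and -3.72 with BAPN and -3.74, -4.90, -3.91 and -5.74 with vehicle, a change of 0.91 ± 0.44 (SE, adjusted p = 0.464) that was 0.01 on slide 1. The low vehicle arrays of Hoxa6 and Hoxa13 were replicates 2 and 4, both on slide 2. The second Hoxa13 probe was detected on no ATII array. Hoxc4 was the gene whose groups did not overlap, with 1.59, 1.48, 1.37 and 1.28 under BAPN and 0.67, 0.97, 1.07 and 0.99 under vehicle, but the change of 0.50 ± 0.36 did not pass (adjusted p = 0.526). Upward 3.58% and downward 5.5% of features had groups that did not overlap. For 13 of the 18 genes detected everywhere the 95% interval lay within a 2-fold change.

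**Figure D4:**
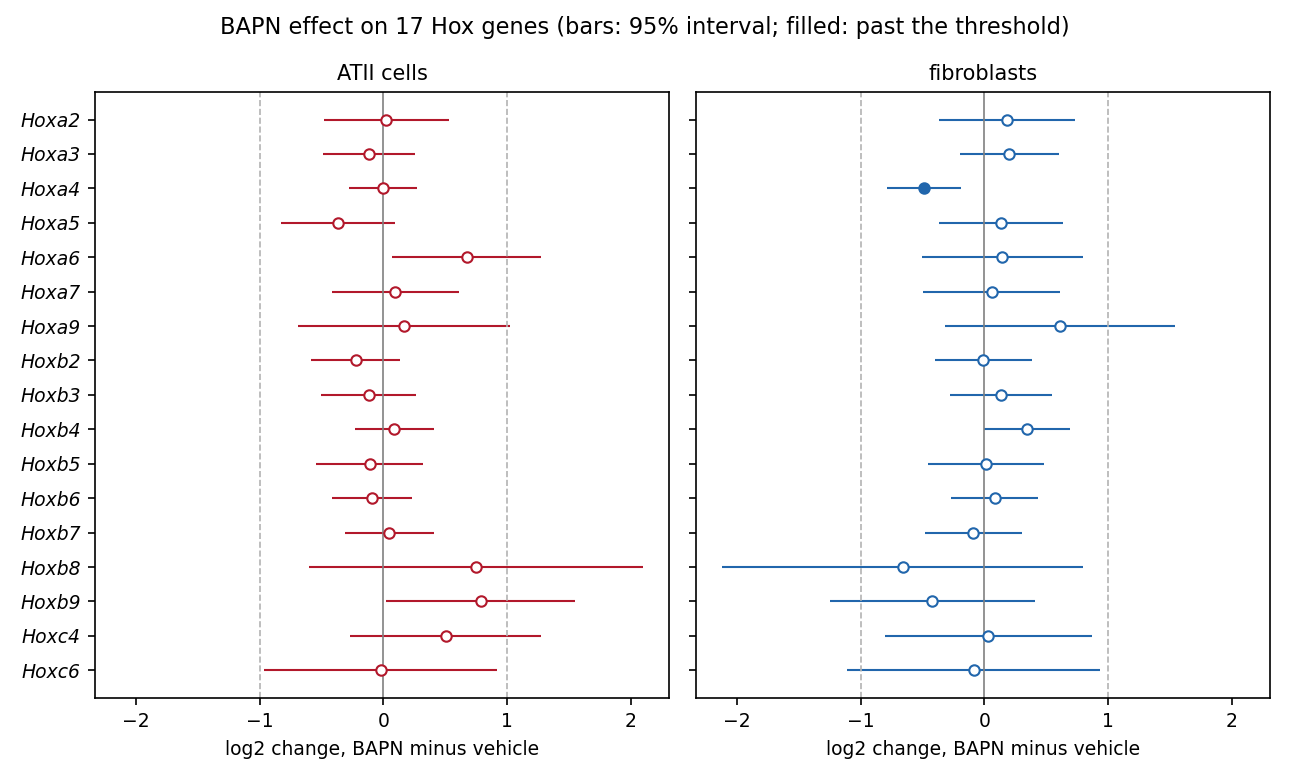
Log2 change, BAPN minus vehicle, of 17 Hox genes detected on every array with its 95% confidence interval, in ATII cells and in fibroblasts; dashed lines mark a 2-fold change and the filled symbol the gene that passed the test, Hoxa4 in fibroblasts (-0.49). The other intervals cross 0 except for those of Hoxa6 and Hoxb9 in ATII cells.

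The difference between the 2 BAPN effects (ATII minus fibroblast) passed for 0 of 28 Hox genes and 0% of 34285 features with limma; 2 Hox genes had an unadjusted p under 0.05, against 13.8% of features. Hoxa4 had 0.48 ± 0.19 (SE, adjusted p = 0.292), from a BAPN effect of 0.00 in ATII cells and -0.49 in fibroblasts. Hoxb9 had 1.21 ± 0.52 (SE, adjusted p = 0.334), from 0.79 in ATII cells and -0.42 in fibroblasts. The third smallest p belonged to Hoxc8, a central gene of the thorax, with 1.04 ± 0.61 (adjusted p = 0.464); it was detected on 0 of 4 BAPN-treated ATII arrays and 1 of 4 vehicle-treated ATII arrays, and on 0 of 3 BAPN-treated and 2 of 4 vehicle-treated fibroblast arrays. A BAPN effect on Hox genes that differs between cell types was therefore not detected with these arrays.

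Arrays of the same group also differed from one another in the Hox genes, and the genes that varied together came from more than one cluster. The deviations of each of the 18 genes from its group means were correlated over the 15 arrays, which share 11 degrees of freedom, and are given as descriptions. The sets named next were drawn after the values were seen. Hoxa2 to Hoxa5 with Hoxb2 to Hoxb4 varied together, with a median correlation of 0.66 over 21 pairs that were all above 0. Hoxa7 with Hoxb5 to Hoxb7 formed another set, with correlations of 0.71 to 0.91 over 6 pairs. Hoxa9, Hoxb8, Hoxb9, Hoxc4 and Hoxc6 formed the last, with 0.41 to 0.92 over 10 pairs. Between the first and the last set the median was -0.35 over 35 pairs, and over all 153 pairs it was 0.10. Removing slide means left the medians within the 3 sets at 0.71, 0.79 and 0.55.

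**Figure D5:**
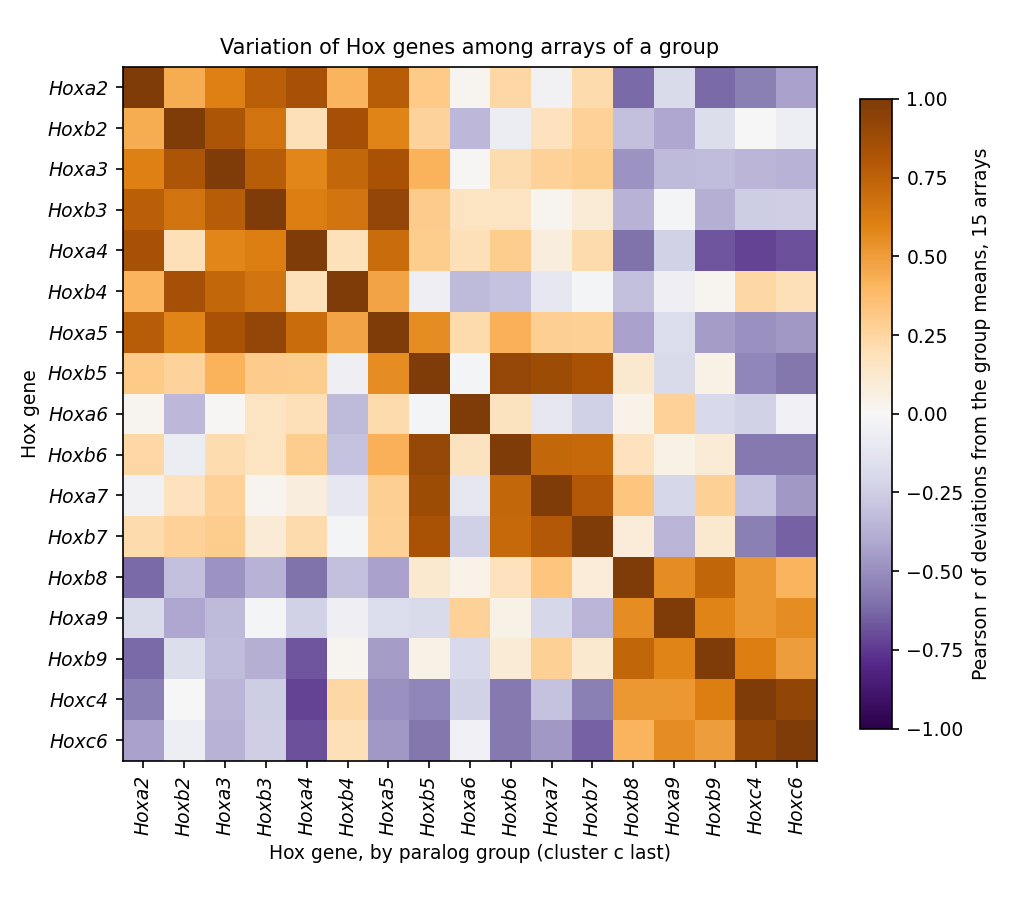
Pearson correlation of within-group deviations over 15 arrays for each pair of 17 Hox genes detected on every array. Blocks of high correlation lie at Hoxa2 to Hoxa5 with Hoxb2 to Hoxb4, at Hoxa7 with Hoxb5 to Hoxb7, and at Hoxa9, Hoxb8, Hoxb9, Hoxc4 and Hoxc6.

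Hoxb5 and Hoxb6, neighbours in cluster b, had r = 0.91 (rho = 0.86). The r was 0.85 without the 2 arrays farthest from the Hoxb5 median, 0.91 over the 8 ATII arrays and 0.92 over the 7 fibroblast arrays, and Hoxb6 was the third closest of all 24291 features to Hoxb5. Hoxa5 and Hoxb3, which lie on different chromosomes, had r = 0.91, with 0.95 over ATII arrays and 0.93 over fibroblast arrays. Hoxa7 was likewise close to Hoxb5, at r = 0.88. Hoxc4 and Hoxc6, which share a cluster, had r = 0.92, but this rested on the fibroblasts (0.98), with 0.33 over the ATII arrays. Hoxa4 and Hoxc4 ran against each other, at r = -0.73. Hoxa6 stood apart, with its highest correlation to any of the other genes at 0.27.

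The arrays behind these sets could be named. Replicate 1 was the lowest ATII array under both BAPN and vehicle for 8 of the 18 genes, among them Hoxa2 to Hoxa5 and Hoxb2 to Hoxb4, and replicate 3 under both for 6, Hoxa7 and Hoxb5 to Hoxb9. In fibroblasts replicate 4 was the lowest under both treatments for 6 genes (Hoxa2, Hoxa3, Hoxa5, Hoxb2, Hoxb3 and Hoxb4), replicate 2 for 4 (Hoxb8, Hoxb9, Hoxc4 and Hoxc6) and replicate 1 for 3 (Hoxa7, Hoxb5 and Hoxb6). The labels do not say that equal numbers share cells. The spread within groups was 0.302 as a median of the 18 genes, against 0.229 for all features detected on every array, and the highest of the 18 was 0.963 for Hoxb8.

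Between the outermost Hox probes of each cluster the array also carries probes for other transcripts, 6 in cluster a, 22 in b, 6 in c and 5 in d. In cluster b 18 of the 22 could be tested in vehicle-treated cells, and 10 were lower and 0 higher in ATII cells, against 17.6% lower and 15.5% higher among all probes tested one by one. Of those 10, 3 were detected on no ATII array and so passed the filter only through the fibroblasts, and 2 of the 3 cover the same 60 bases, which leaves 7 detected in both cell types. In BAPN-treated cells 9 of 17 were lower and 0 higher, against 16.9% and 14%, and 7 of the 9 were detected in both cell types. Between the Hoxb5 and Hoxb4 probes lie 6 of them on the plus strand, in 2 regions the array names by position, chr11:96173788-96174352 and chr11:96175764-96176029 (mm9). Of these 6, 5 were lower in ATII cells in both comparisons, with changes that ran down to -1.98 in vehicle-treated and -2.002 in BAPN-treated cells. A transcript on the opposite strand beside Hoxb7 (ENSMUST00000150698) had -1.83 in vehicle-treated and -1.88 in BAPN-treated cells, and Gm11536, opposite to the genes between Hoxb4 and Hoxb3, had -1.35 and -1.33.

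In cluster a the noncoding transcript 2700086A05Rik (Hoxaas3), near Hoxa6, had -1.56 in vehicle-treated cells (adjusted p = 0.00967) and -1.60 in BAPN-treated cells (adjusted p = 0.0145). A plus-strand transcript that overlaps the Hoxa3 probe on the other strand (ENSMUST00000155922) had -0.68 in vehicle-treated cells (adjusted p = 0.0443), where Hoxa3 itself was higher, but 0.13 in BAPN-treated cells (adjusted p = 0.776). Of 5 probes named for HOTAIR, the noncoding RNA of cluster c, 1 was detected on every array and 3 on none. The antisense transcript of Hoxa11 was detected on every array, whereas Hoxa11 was detected on none. Of 25 other cluster probes tested for BAPN in fibroblasts 4 passed, all lower, against 9.73% of all probes lower. They were this antisense transcript (-0.81, adjusted p = 0.0443), a HOTAIR probe (-1.72), a probe of the region chr11:96173788-96174352 (-1.03) and ENSMUST00000100000 in cluster d (-0.67). Like the Hoxa4 spot, all 4 lay right of column 82 of the array, and the part of spot position in them was not tested. For BAPN in fibroblasts the other probes of the region chr11:96173788-96174352 did not pass with limma (-0.23, adjusted p = 0.641, and -0.01, adjusted p = 0.990).

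Genes that act with or on Hox genes were counted in lists that were drawn up with earlier results of these data known. The shares of all features to set beside these counts are 14.5% higher and 16.8% lower in vehicle-treated cells and 13.4% higher and 15.9% lower in BAPN-treated cells. In vehicle-treated cells 2 of 9 TALE cofactors (the Pbx, Meis and Pknox partners) were higher in ATII cells and 1 lower, with a median of -0.06; in BAPN-treated cells 1 was higher and 1 lower. Pknox2 rose by 1.69 and Pbx2 by 0.56, and Pbx4 had -0.72. Of 14 retinoid and Cdx inputs 5 were higher and 4 lower in vehicle-treated cells, and 5 higher and 3 lower in BAPN-treated cells. Cyp26a1, which breaks down retinoic acid, was higher by 4.04, whereas its relative Cyp26b1 had -3.40. Crabp2, which carries retinoic acid in the cell, was higher by 2.50, and Aldh1a1, which makes it, had -2.49. In BAPN-treated cells Cyp26a1 had 3.76, Crabp2 2.67, Cyp26b1 -3.07 and Aldh1a1 -2.34.

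Chromatin regulators that keep Hox clusters silent or active were counted in the same way. Of 9 Polycomb complex 2 genes 2 were higher and 3 lower in vehicle-treated ATII cells, with Jarid2 at 0.66 and Suz12 at 0.32, and Phf19 at -1.09 and Phf1 at -0.73. Of 12 Polycomb complex 1 genes 4 were higher and 3 lower, with Phc1 at 0.71 and Rnf2 at 0.65, and Cbx6 at -0.66 and Phc3 at -0.61. In BAPN-treated cells 1 was higher and 3 lower in each of the 2 complexes. Of 13 Trithorax genes and H3K27 demethylases 5 were higher and 0 lower, led by the demethylase Kdm6a at 0.85 and the methyltransferase Kmt2c at 0.67. Their median was 0.34, against -0.13 for all features, but in BAPN-treated cells 4 were higher and 1 lower, with a median of 0.08. Among 18 tested genes that lie beside the clusters, 7 were higher and 0 lower, led by Cbx1 at 0.81 beside cluster b and Smug1 at 0.71 beside cluster c; in BAPN-treated cells 4 of 17 were higher and 1 lower.

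Homeobox and T-box genes outside the clusters included larger differences. Of 32 tested, 6 were higher and 9 lower in vehicle-treated ATII cells, and of 31 in BAPN-treated cells 7 were higher and 9 lower. Irx2, an Iroquois gene of lung epithelium, was higher by 6.86 and Meox1 by 5.04. Dlx2 had -4.03 and Prrx1, a marker of mesenchyme, -3.15. The largest Hox difference that passed between vehicle-treated cells was 1.82, for Hoxc5. Of the cluster noncoding transcripts 3 of 21 had a named probe and 2 were tested, of which 1, Hoxaas3, was lower.

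Under BAPN in fibroblasts 10 of 108 tested genes of these lists passed (9.26%), against 13.4% of all features. Higher were Bmi1 (0.42) and Phc1 (0.55) of Polycomb complex 1, Psip1 (0.52) of the Trithorax list, and Hnrnpa2b1 (0.33) and Mtx2 (0.56) beside the clusters. Lower genes included Dlx3 (-0.72), the Hoxa11 antisense transcript, and Calcoco1 (-0.38) and Ttll6 (-1.50) beside the clusters. In ATII cells 0 genes of the lists passed with limma.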

How the data were processed

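RNA of 15 samples was hybridised to one-colour Agilent mouse arrays, 1 array per sample. Per the file headers, the authors' scanner output came from Feature Extraction 10.7.3.1 with probe positions on mouse build mm9; the deposited files give each spot's processed intensity (background-subtracted and detrended within the array), its mean and background intensities, and marks of 0 or 1 for spots well above background, saturated or outlying. A deposited table of the authors' log2 values, with sorted values equal between columns within 0.0032 and a column median of 5.96, served as an alternative; its normalization is not stated in the labels.

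Spots of 1 probe were averaged over 59305 non-control spots, and 469 of 55681 probes without a value on some array were dropped. Levels were scaled to percentile 75 of each array and fitted with limma 3.58.1 in R 4.3.3, with 1 mean per group over all 15 arrays (11 residual degrees of freedom). A gene was represented by its brightest probe. It was tested if 3 or more arrays of the groups compared marked that probe as detected. Accessions named 27436 probes, symbols 3481 and older symbols 506, and 24258 were left unnamed. The fit was tested on simulated data first.

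The members and lists were chosen with earlier results of these data known. The rule for values on every array took the up to 10 largest rises and 10 largest falls past the threshold, without overlap, between vehicle-treated cell types, each gene past it for BAPN against vehicle or for the difference of those effects, or else the 3 smallest unadjusted p, and genes past it in opposite directions in the 2 cell type comparisons. Lists are given by counts, medians and the 2 largest rises and falls. Array values of Hoxb8, Hoxd10, of Hoxc4 for BAPN in ATII cells, and of the genes that passed between BAPN-treated cell types fall outside that rule and were picked after their values were seen, as were the probes named between the Hox genes and the list genes named for BAPN-treated fibroblasts beyond the rule.

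Pairing by replicate number was checked by the correlation of deviations from group means. Vehicle-treated ATII and fibroblast arrays of the same number gave 0.220, 0.247, 0.390 and 0.322. Different numbers on the same slide gave 0.240 to 0.334, and numbers on different slides gave -0.408 to -0.175. A shared number therefore could not be told apart from a shared slide. The main fit used no pairing, and the replicate number entered as a block only in an alternative. BAPN and vehicle arrays of the same number, which also shared a slide, gave 0.405, -0.039 and -0.020 in ATII cells. In fibroblasts they gave -0.046, 0.276 and 0.036. All of these lay above the values of different numbers on the same slide. Those were -0.260 to -0.142 in ATII cells and -0.398 to -0.328 in fibroblasts. Pairs on different slides gave -0.226 to 0.334 in ATII cells and -0.080 to 0.298 in fibroblasts. Whether arrays of the same number share more than a number and a slide is not known. For many Hox genes, arrays of the same number were the lowest under both treatments, as given above. The main fit treated them as independent. Alternatives changed the scaling, background step, source table, probe unit, filter, slide, spot position, samples fitted and replicate block, or left out 1 array. The number of arrays, 3 or 4 per group, limits the precision. Some items are not reported here.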

Additional observations from a re-analysis of the deposited data

Results flagged for a closer look

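Each Hox gene detected on all arrays of a group of 4 was examined for an array far from the rest of that group, and 2 of 60 such gene and group pairs had one. The limit used is the 95% critical value of a test for a single far value, which chance alone passes in about 1 in 20 groups. Hoxb2 had a level of 2.42 on replicate 1 of the BAPN-treated ATII cells (slide 1), while the other 3 arrays of that group lay between 2.73 and 2.76. Hoxc4 had a level of -1.95 on replicate 2 of the vehicle-treated fibroblasts (slide 2), while the other 3 lay between -0.52 and -0.34. Among the BAPN-treated fibroblasts, which were not examined here, Hoxc4 was also lowest on replicate 2, at -1.71 against -0.07 and -0.60.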

How the results depend on the processing

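Counts of Hox genes that passed between cell types moved by over 1.5 times only within single slides, which hold fewer arrays: 6 on slide 1 and 2 on slide 2 in BAPN-treated cells, against 10, and 3 on slide 2 in vehicle-treated cells, against 11. Leaving out 1 array gave 7 to 11 in BAPN-treated and 10 to 13 in vehicle-treated cells, 0 to 1 for BAPN in fibroblasts, and 0 to 0 for BAPN in ATII cells and for the difference. Between vehicle-treated cells, Hoxa4, Hoxb6 and Hoxb7 passed in all 20 alternatives. Hoxa5, Hoxa7, Hoxb2 and Hoxc5 passed on neither slide alone, and Hoxa3, Hoxb4, Hoxb5 and Hoxc4 not on slide 2. Between BAPN-treated cells, Hoxa3 and Hoxa7 also did not pass with the slide as a block or with only the groups compared, nor Hoxa3 without a filter, and Hoxb2 turned round on slide 1 alone (-0.0306).

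For BAPN in fibroblasts the count of 1 was 0 with quantile scaling, the deposited table, slide 1, slide 2, position correction, only the groups compared, and the replicate block. Without a filter Hoxc8 passed there and Hoxa4 did not. Over all features the count there was 4308, against 575 on slide 1, 2304 with only the groups compared, 0 with the replicate block, 1149 without BAPN replicate 2 and 1779 without vehicle replicate 2. With the replicate block 8 Hox genes passed between BAPN-treated and 10 between vehicle-treated cells, and it ended no other Hox call than those of Hoxa3, Hoxa7, Hoxb4 and Hoxa4 given above. Vehicle-treated fibroblasts had 30 Hox genes detected on at least 1 array, against 19 on every array. Why these values moved was not tested. Dim probes left 15 of the 39 genes untested in each cell type comparison.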
